A study of Mus musculus with 13 samples.

Results

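Mouse ES cells expressing dCas9-OGA-D242A were compared with WT ES cells. The fusion joins Cas9 without nuclease activity to the glycosidase OGA, in which the substitution has removed catalytic activity. The comparison used every gene and every repeat subfamily with at least 100 counts summed over the WT and dCas9-OGA-D242A libraries. This gave 12933 of 49671 genes and 590 of 1552 repeat subfamilies, with the rRNA row of the repeat table left out. The series has 13 samples, and its joint tables of counts hold 4 libraries: WT, dCas9-OGA-D242A, dCas9-OGA and Dnmt1-/-. Each arm of the comparison had 1 library, so differences have no replicate check and are given without p-values.

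The dCas9-OGA-D242A cells were made in AinV15, ES cells whose inducible cassette sits next to Hprt and can be exchanged, with the doxycycline-responsive transactivator at the ROSA26 locus. Recombinant cells were selected with G418, and the cassette also encoded 4 sgRNAs against the promoter of IAP retrotransposons. The fusion was induced with 1 µg/mL doxycycline for 48 h. The sample title and its treatment label differ in the last letter of the substitution, and the name in the title is used here. The labels call WT cells untreated, but the WT column of the joint tables is known by its name alone. It is not tied to any of the 3 WT replicates that were deposited separately, and its cell line is not given in the sources used here. The study's methods give culture in serum with LIF for ES cells in general, without naming the cells of this column. Any effects of the fusion, its induction and the history of the cells on the difference between both libraries therefore cannot be told apart. The dCas9-OGA cells carry the same cassette with active OGA, and Dnmt1-/- ES cells lack the maintenance DNA methyltransferase. The labels give growth in serum with LIF for the deposited samples, and the transgene has no row in the gene table, so its expression was not checked.

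O-GlcNAc is a single sugar that OGT attaches to serines and threonines of nuclear and cytoplasmic proteins and that OGA removes. IAP elements are endogenous retroviruses of the mouse that stay silent in ES cells through DNA methylation and the TRIM28 complex, so a catalytically dead OGA at their promoters serves as the control for binding of the complex alone. Cultures of ES cells hold a small share of cells that transiently switch on genes of the 2-cell embryo, and a few cells that drift towards endoderm, trophoblast or the primed epiblast.

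The gene counts came to 25097983 in WT and 24828078 in dCas9-OGA-D242A, and 22116 and 22084 genes had a count. They came to 24955180 in dCas9-OGA and 18693531 in Dnmt1-/-. A raw count in Dnmt1-/- therefore stands for a higher cpm than the same count in the other libraries. Levels are given as cpm, counts scaled to the total counted on genes, and log2 ratios are of dCas9-OGA-D242A to WT on the log2(cpm + 0.5) scale. The core pluripotency genes were abundant in both libraries: the 10 pluripotency genes summed to 5614 cpm in WT and 3882 cpm in dCas9-OGA-D242A, with Pou5f1 at 1303 and 887 cpm and Sox2 at 801 and 755 cpm. The WT library had the most genes apart from the other 3 joint libraries, with 220 genes at least 2-fold above and 791 at least 2-fold below all of them, where dCas9-OGA had 212 and 359, Dnmt1-/- 82 and 157 and dCas9-OGA-D242A 123 and 70. The 3 WT replicates were counted and normalized separately, so levels set across these tables are a description. They cover 12196 of the 12933 genes compared, and the other 737, among them Sox2, Tubb3 and B2m, were not analysed against them. Of these 12196 genes, 4544 (37.3%) differed at least 2-fold from the replicate mean in the WT library and 4100 (33.6%) in the dCas9-OGA-D242A library.

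Among the 12933 genes, 1673 (12.9%) passed 2-fold upwards and 1036 (8.01%) downwards in dCas9-OGA-D242A, with a median log2 ratio of 0.03. These shares are the background for every count of list members given here. A member that reached the minimum of 100 counts through 1 library alone had to differ, so counts of scarce members support no direction. At 4-fold these numbers were 279 and 161, and at 8-fold 52 and 32. Ssh2 (log2 ratio 1.00, 542 and 1085 counts in WT and dCas9-OGA-D242A) lay just past 2-fold, and Trappc11 (1291 and 2565 counts) just under it. At the lower limit, Nosip (4140 and 2041 counts) lay just past 2-fold and Fiz1 (6402 and 3162 counts) just within it.

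**Figure D1:**
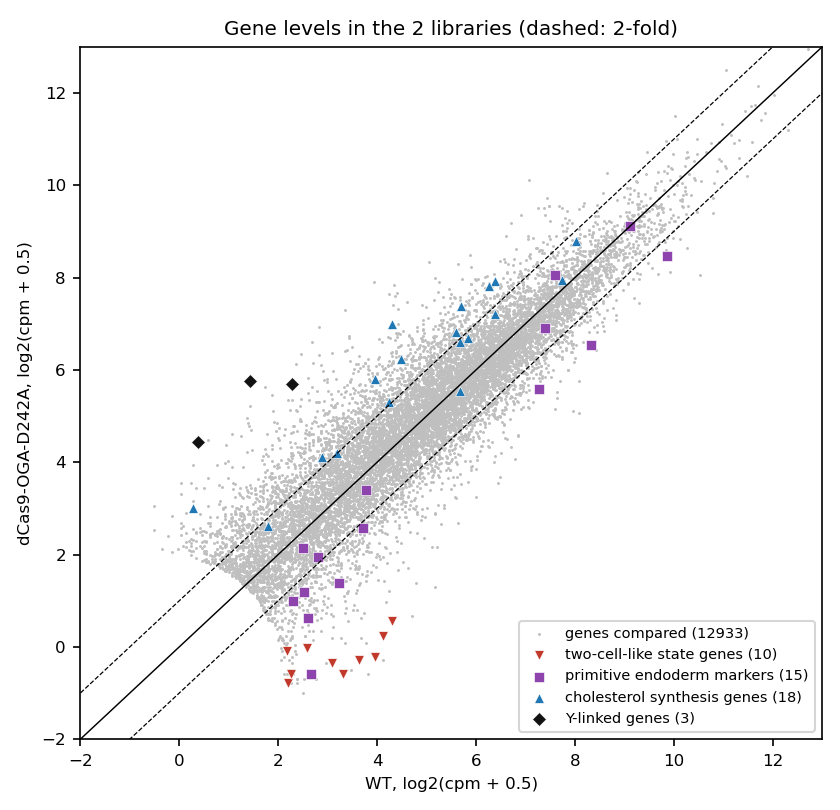
Level of each of the 12933 genes in WT (x axis) and dCas9-OGA-D242A (y axis), both as log2(cpm + 0.5), 1 point per gene. The 10 genes of the 2-cell-like state lie below the lower 2-fold line, 11 of 18 cholesterol synthesis genes above the upper one and the 3 Y-linked genes far above it.

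The 15 genes with the largest rise had GC contents from 35.8% (Uty) to 46.6% (Mki67). Cenpf, a kinetochore protein of dividing cells, was counted 165 times in WT and 2996 times in dCas9-OGA-D242A (log2 ratio 4.10). Mki67, the proliferation marker Ki-67, was counted 371 and 5951 times (3.97), and Pcm1, a protein of centriolar satellites, 245 and 3922 times (3.95). The longest transcripts of Cenpf and Mki67 span 11130 and 10061 bases. WT was the low library in each case, since dCas9-OGA had 6058 counts of Cenpf, 9610 of Mki67 and 3282 of Pcm1, and Dnmt1-/- had 1848, 3137 and 2690. The WT replicates held 127 ± 11.6 cpm of Cenpf (SD, n = 3), against 6.57 cpm in the WT library and 121 cpm in dCas9-OGA-D242A. The mitotic kinesins Kif20b (125 and 2011 counts) and Cenpe (117 and 1732 counts) were likewise lowest in WT, as were Zfp292, 4932438A13Rik, Vps13a and Ccdc88a, with log2 ratios between 3.58 and 3.92. Slfn9, a Schlafen family member (18 and 368 counts), and Sgo2b, a shugoshin paralog (5 and 192), were low in dCas9-OGA as well, with 30 and 4 counts, and Dnmt1-/- had 154 and 94. Mipol1 had 25 counts in WT, 545 in dCas9-OGA-D242A, 371 in dCas9-OGA and 77 in Dnmt1-/-.

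GC content and length of the longest transcript moved with the difference over all genes. In the quintile of genes with the lowest GC content (30.8% to 44.3%) the median log2 ratio was 0.49, and 29.5% were 2-fold higher and 2.36% 2-fold lower. In the quintile with the highest GC content the median was −0.23, with 4.95% higher and 13.3% lower. The lowest quintile had a median of 0.57 for dCas9-OGA and 0.55 for Dnmt1-/- against the same WT library, whereas dCas9-OGA over dCas9-OGA-D242A gave 0.07 there. A quadratic trend on GC content and length took up 14.3% of the variance of the log2 ratios. After its removal 1263 genes were 2-fold higher and 1090 2-fold lower of 12924, and where the numbers of a list past 2-fold change with that trend removed, both are given. The part of RNA quality or library preparation in this trend was not tested.

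**Figure D2:**
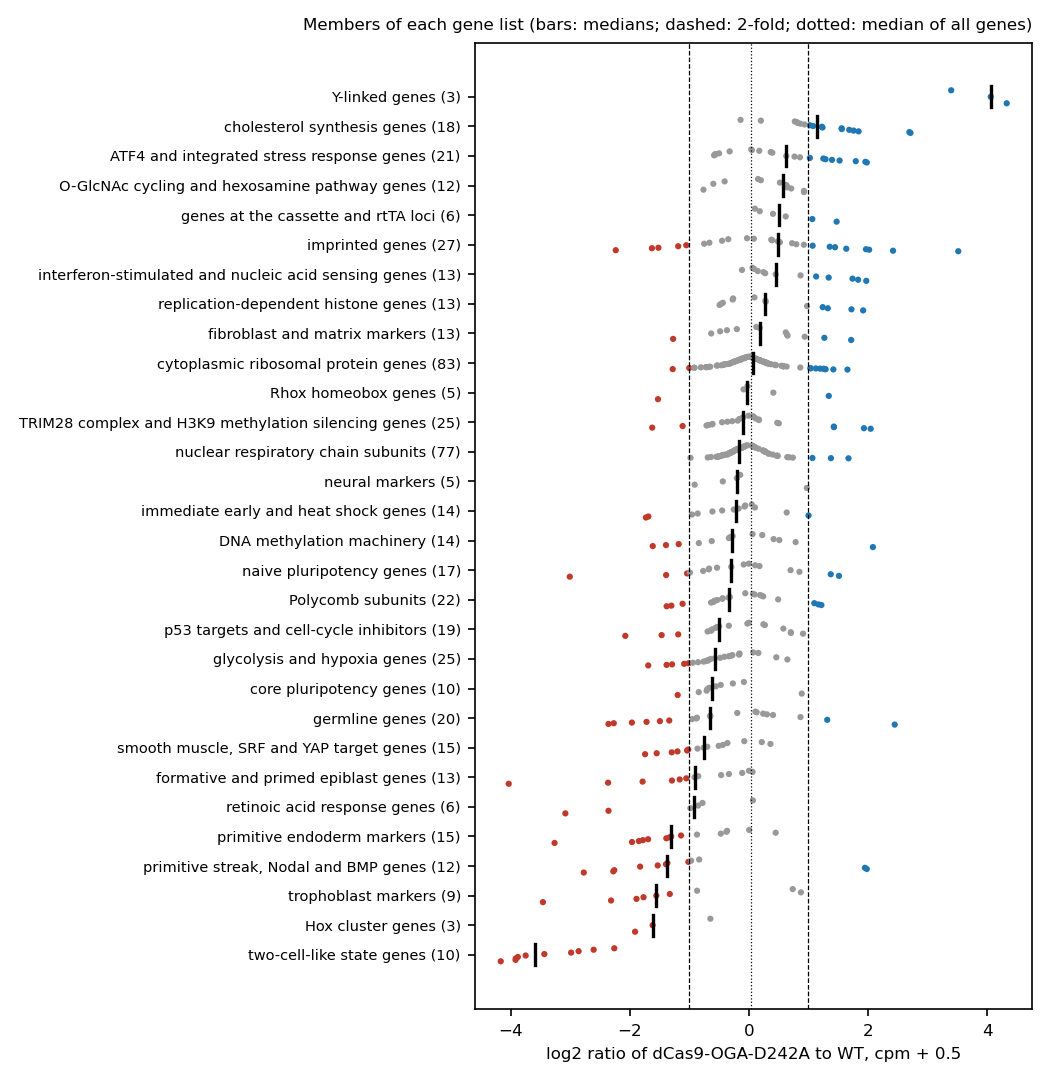
Log2 ratio of dCas9-OGA-D242A to WT (x axis, cpm + 0.5) for the compared members of 30 gene lists, 1 point per gene, with the number of members in brackets. Black bars are list medians, dashed lines 2-fold, the dotted line the median of all genes (0.03), and colours mark members past 2-fold. The 2-cell-like list has the lowest median (−3.59) and the Y-linked list the highest (4.06). Both hold members that reached the minimum of counts through 1 library alone, so this order is a description.

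Genes of the 2-cell-like state had few counts in dCas9-OGA-D242A. Summed over all 25 listed genes, the list stood at 116.7 cpm in WT, 4.47 in dCas9-OGA-D242A, 1.12 in dCas9-OGA and 3.91 in Dnmt1-/-, and at 874 to 906 in the WT replicates, so the WT library stood between the WT replicates and the other 3 joint libraries. The 10 members that reached the minimum of 100 counts did so through WT and had to be lower, so their number and their median log2 ratio of −3.59 are a description, and 15 lay under the minimum. Usp17la, a deubiquitinase gene of this state, was counted 377 times in WT, 9 in dCas9-OGA-D242A, 3 in dCas9-OGA and 12 in Dnmt1-/- (log2 ratio −4.17). Tmem92 (483 and 24 counts in WT and dCas9-OGA-D242A) and Arg2, the mitochondrial arginase (238 and 4 counts), had log2 ratios of −3.75 and −3.92. Zscan4e was down to 2 counts from 103, for which counting error alone allows a log2 ratio, taken without a pseudocount, between −8.74 and −3.78. In bulk RNA, fewer cells of a type and less RNA per cell cannot be told apart.

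The Zscan4 genes encode zinc finger proteins that mark this state, and Zscan4c (101 and 11 counts) and Zscan4d (138 and 12 counts) had log2 ratios of −2.26 and −2.61. Their promoters are printed to show how alike copies of this family are. Both windows run from 250 bases before to 50 after the start in RefSeq on GRCm38.p6, at chr7:11005495-11005794 on the plus strand for Zscan4c and at chr7:11166099-11166398 on the minus strand for Zscan4d. Capitals mark bases that differ between both genes or lie outside their overlap.
Zscan4c: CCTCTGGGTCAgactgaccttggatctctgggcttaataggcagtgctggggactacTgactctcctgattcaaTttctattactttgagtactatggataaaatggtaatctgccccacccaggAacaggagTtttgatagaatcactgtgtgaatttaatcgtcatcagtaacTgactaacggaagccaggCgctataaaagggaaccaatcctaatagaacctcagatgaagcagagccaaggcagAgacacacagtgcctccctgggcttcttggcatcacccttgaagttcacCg
Zscan4d: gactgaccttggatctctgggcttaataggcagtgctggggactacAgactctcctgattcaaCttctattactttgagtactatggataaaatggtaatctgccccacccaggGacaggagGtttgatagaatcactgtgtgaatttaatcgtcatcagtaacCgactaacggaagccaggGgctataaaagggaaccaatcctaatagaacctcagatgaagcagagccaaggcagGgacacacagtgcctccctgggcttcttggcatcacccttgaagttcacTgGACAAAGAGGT
The windows are offset by 11 bases, and 281 of 289 overlapping bases were identical (97.2%). Reads of close copies may be shared between them in the counts, so values of single Zscan4 genes are uncertain. The windows lie mostly before the start, and the likeness of the transcripts was not measured.

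Other genes among the largest falls were low in dCas9-OGA and Dnmt1-/- too. Gm4971, a processed pseudogene (342 and 4 counts), and Gm8300 (266 and 5 counts) had 1 and 5 counts in dCas9-OGA and 6 and 3 in Dnmt1-/-. Gm21761 was counted 887 times in WT and 49 times in dCas9-OGA-D242A, and A930004D18Rik 330 and 14 times, with 99 counts of the latter in Dnmt1-/-. Rdh1, a retinol dehydrogenase, had 130 counts in WT and 0 in dCas9-OGA-D242A, at least 42.9-fold lower with a floor of 3 counts. Gm29361 is annotated as antisense (307 and 16 counts), and since the sources differ on whether the kit marked strand, reads of its partner may be among its own.

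**Figure D3:**
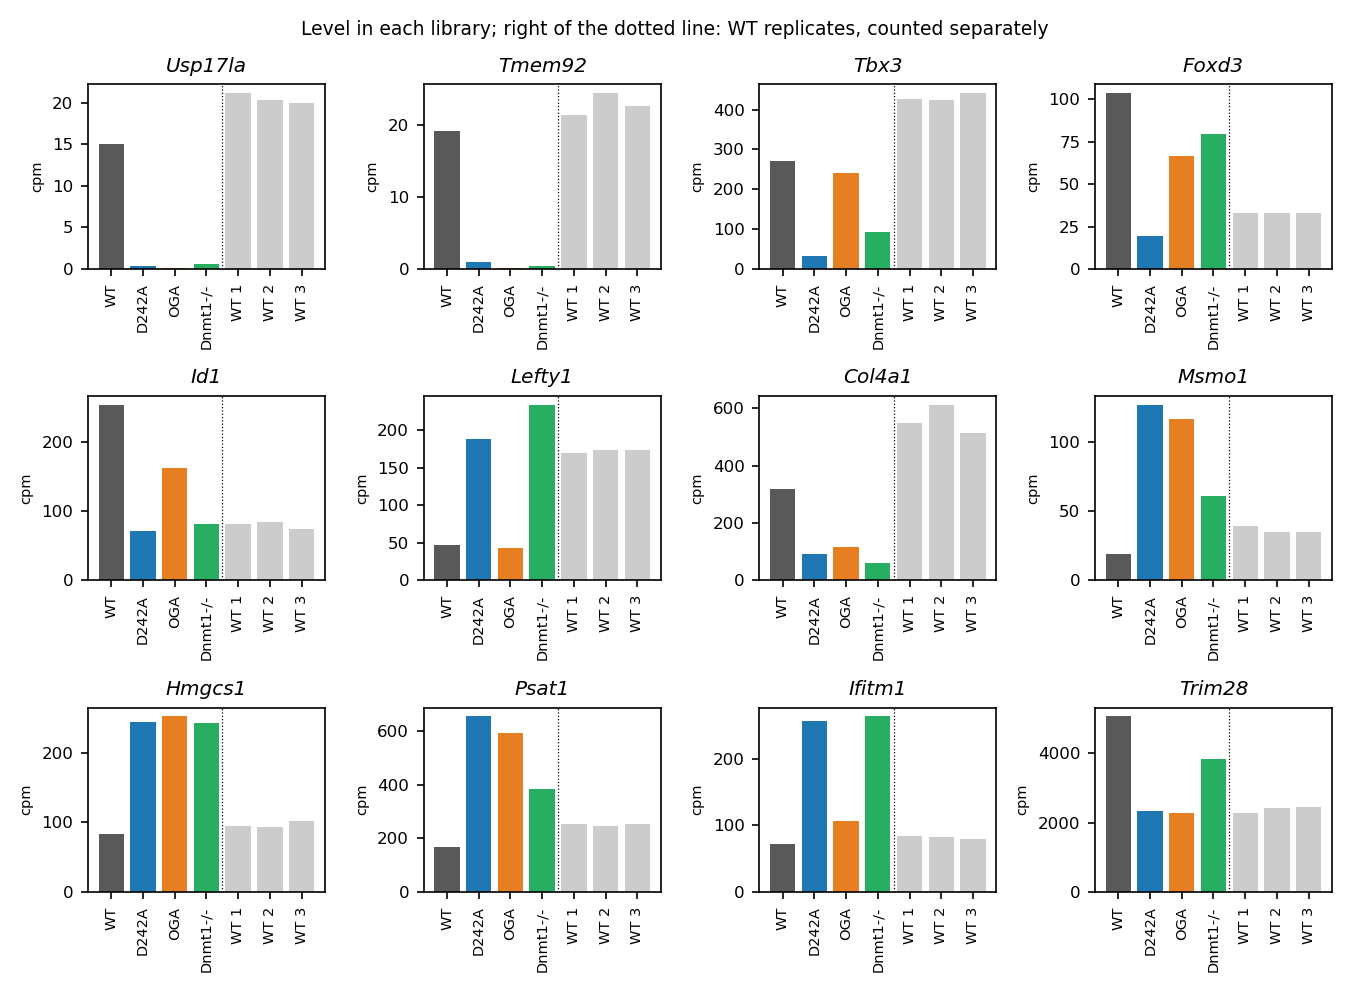
Level in cpm (y axis, from 0) of 12 genes in the 4 joint libraries (coloured bars) and, right of the dotted line, in the 3 WT replicates counted separately (light bars). Bars are single libraries without error bars: Usp17la and Tmem92 are near 0 in the 3 joint libraries other than WT, and Tbx3 and Foxd3 are lowest in dCas9-OGA-D242A among the joint libraries.

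Among repeats, the endogenous retrovirus that accompanies the 2-cell-like state fell most. The WT replicates were used for genes only, so every repeat ratio rests on the WT library of the joint tables and was not set against them. Of the 590 subfamilies, 24 (4.07%) were higher by 2-fold or more and 17 (2.88%) lower, with a median log2 ratio of 0.32. With ratios centred on that median the numbers were 9 and 29, with TMM factors on repeat counts 10 and 29, on DNA transposon counts 7 and 34, and on the total of repeat counts 13 and 21, so the split depended on the scaling. MERVL-int was counted 31657 times in WT and 3788 times in dCas9-OGA-D242A (log2 ratio −3.04), and MT2_Mm, the LTR that flanks it, 5268 and 815 times (−2.66). In dCas9-OGA they had 2789 and 935 counts and in Dnmt1-/- 2422 and 588, so WT held the high values. MERVL_2A-int, a related subfamily, had 1284 and 1227 counts (−0.05). The subfamilies of the MERVL group, 8 in all, made up 1646 cpm in WT and 357 cpm in dCas9-OGA-D242A.

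Most IAP elements differed little, and whether any passed 2-fold depended on the scaling. Of 25 IAP subfamilies 13 could be compared, and 3 were 2-fold higher, none 2-fold lower, beside 4.07% and 2.88% of all subfamilies, with a median log2 ratio of 0.12 that lay below the median of all subfamilies. IAPEz-int, the coding part of the IAP family, had a log2 ratio of 0.18, with a 95% interval from 0.14 to 0.21 that covers counting error only, and of −0.027, −0.19 and −0.26 on the total of repeat counts, TMM factors of repeats and DNA transposon counts. The LTRs of IAP lay on both sides of 0: IAPLTR2a at 0.87 (74 and 144 counts), IAPLTR1a_Mm at 0.12 (131 and 142), IAPLTR2_Mm at 0.00 (251 and 249), IAPLTR1_Mm at −0.04 (783 and 754), IAPLTR2b at −0.37 (133 and 99) and IAPLTR2a2_Mm at −0.42 (172 and 124). The internal parts IAP1-MM_I-int, IAPEY4_I-int and IAP-d-int had log2 ratios of 0.34, 0.06 and −0.16. The 3 that were 2-fold higher were rare: IAPEY_LTR (24 and 76 counts, 1.29), IAPEY3-int (97 and 243, 1.24) and IAPLTR3-int (28 and 76, 1.14). Of them 2 stayed past 2-fold on the total of repeat counts, 1 with TMM factors of repeats and none on DNA transposon counts or centred on the median of all subfamilies. Beside them dCas9-OGA had 117, 257 and 144 counts, and 46127 of IAPEz-int. All IAP subfamilies together came to 528 cpm in WT, 596 in dCas9-OGA-D242A and 2080 in dCas9-OGA. The sum in Dnmt1-/- is not given, since IAPEz-int and ETnERV-int have the same count there, 12152, and 1 of both may be a copying error.

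The 316 LTR subfamilies had 10 higher and 13 lower, beside 4.07% and 2.88% of all subfamilies, and a median of 0.21, and their summed log2 ratio was −0.08, or 0.11 without MERVL-int and MT2_Mm. Among the ETn group, ETnERV3-int rose from 156 to 445 counts (1.46), while MMETn-int (66561 and 72143 counts, 0.13) and ETnERV2-int (183 and 210, 0.20) stayed within 2-fold. RLTR1B-int had 7791 counts in WT, 2924 in dCas9-OGA-D242A, 13883 in dCas9-OGA and 8251 in Dnmt1-/-, a log2 ratio of −1.39 with dCas9-OGA-D242A as the low library. RLTR45-int fell likewise from 1668 to 415 (−1.96), with 812 in dCas9-OGA and 1585 in Dnmt1-/-. ERVB4_2-LTR_MM (188 and 37 counts), RNERVK23-int (368 and 101), RMER12B (440 and 125), MLT1J2 (213 and 63), ERVB4_2-I_MM-int (290 and 95) and MURVY-LTR (399 and 143) had log2 ratios from −2.01 to −1.39. MTEb-int (86 and 286 counts), MLT1G1 (251 and 727) and RLTR16B_MM had log2 ratios from 1.35 to 1.61.

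LINE-1 elements copy themselves through RNA, and of the 101 LINE subfamilies 7 were 2-fold higher and 1 lower, beside 4.07% and 2.88% of all subfamilies, with a median of 0.53. Their summed log2 ratio of 0.56 depended on the scaling, with 0.36 on the total of repeat counts, 0.19 with TMM factors of repeats and 0.12 on DNA transposon counts. L1_Mm rose from 670 to 1984 counts (1.56) and L1Md_Gf from 266 to 676 (1.32). The other L1Md subfamilies lay under 2-fold, with L1Md_T at 0.89 (12866 and 23523 counts), L1Md_A at 0.77 (9345 and 15748), L1Md_F at 0.81, L1Md_F3 at 0.50 and L1Md_F2 at 0.37. The summed L1Md counts were 1239 cpm in WT, 2069 in dCas9-OGA-D242A, 2775 in dCas9-OGA and 1730 in Dnmt1-/-, so WT was lowest. SINEs, which ride on the LINE machinery, had none of 34 past 2-fold, B1 subfamilies between 0.00 and 0.22 and B2 subfamilies between 0.11 and 0.25. None of 41 DNA transposon subfamilies, which no longer move in the mouse, passed 2-fold, though their sum was higher by 0.44. Among satellites MMSAT4 (2920 and 8466 counts) and IMPB_01 (718 and 1887) were higher by 1.55 and 1.39, while GSAT_MM, the major satellite, had 117 and 98 counts. The tRNA class, with few subfamilies compared, had 3 of 5 higher, led by tRNA-Leu-TTA(m) (167 and 629 counts, 1.85), in which WT was again the lowest of the 4 libraries.

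**Figure D4:**
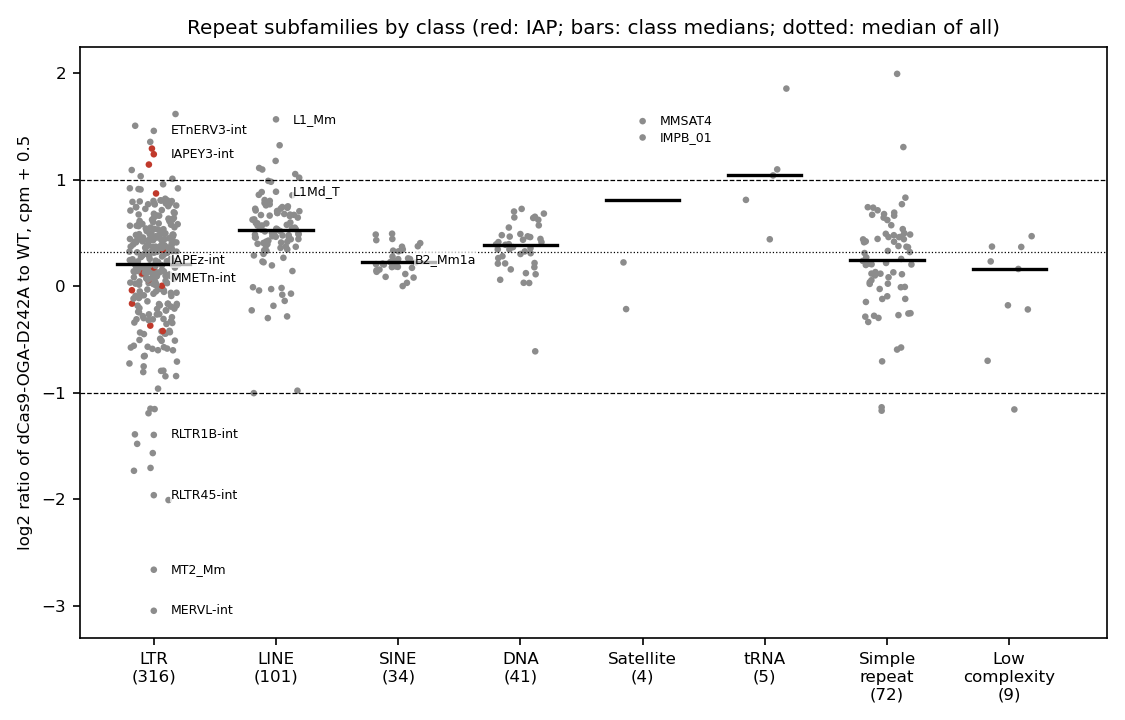
Log2 ratio of dCas9-OGA-D242A to WT (y axis, cpm + 0.5) for subfamilies of 8 repeat classes (x axis, number compared in brackets), 1 point per subfamily, with IAP in red and class medians as bars. MERVL-int and MT2_Mm lie lowest at −3.04 and −2.66, and IAPEz-int lies at 0.18, below the median of all subfamilies (dotted, 0.32).

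Genes of naive pluripotency, which hold ES cells in their ground state, had 2 of 17 members 2-fold higher and 3 lower, with a median log2 ratio of −0.30, beside 12.9% and 8.01% of all genes. Tbx3, a T-box factor of the LIF network, had 6789 counts in WT, 823 in dCas9-OGA-D242A, 6033 in dCas9-OGA and 1754 in Dnmt1-/- (−3.01), so dCas9-OGA-D242A was the lowest, also beside 430 ± 9.52 cpm (SD, n = 3) in the WT replicates. Dppa2 (2973 and 1114 counts, −1.39) and Klf4 (10008 and 4812, −1.04) were lower as well. Dppa3, a protein of the oocyte and early embryo, rose from 250 to 729 counts (1.51), and Fbxo15 from 1017 to 2629 (1.37). Nanog (−0.77), Esrrb (0.00), Klf2 (0.10) and Zfp42 (0.85) stayed within 2-fold. Of the core genes 1 of 10 passed 2-fold, Sall4, with 14468 and 6238 counts (−1.20).

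Genes of the formative and primed epiblast, the state that follows naive pluripotency, had 6 of 13 compared members lower and none higher, beside 8.01% and 12.9% of all genes, with a median of −0.91. With GC content and length removed 4 were lower. Lef1, the Wnt effector, fell from 641 to 27 counts (−4.04), and was 9 in dCas9-OGA and 272 in Dnmt1-/-. Foxd3 had 2596 counts in WT, 488 in dCas9-OGA-D242A, 1667 in dCas9-OGA and 1485 in Dnmt1-/- (−2.37), while Sox3 (348 and 91 counts) and Zic2 (1056 and 419) had log2 ratios of −1.79 and −1.29. Otx2 (1972 and 1953 counts), Dnmt3a (0.06) and Dnmt3b (−0.34) hardly differed, though in dCas9-OGA Otx2 had 188 counts. The list summed to 1290 cpm in WT, 948 in dCas9-OGA-D242A and 553 to 588 in the WT replicates, and against the replicate mean its median was 0.55, of opposite sign.

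Signals of the primitive streak were split: 8 of 12 compared genes were lower and 2 higher, beside 8.01% and 12.9% of all genes, with a median of −1.38, or −0.59 against the WT replicate mean. The BMP targets Id1 (6377 and 1768 counts, −1.83) and Id3 (2864 and 574, −2.28) fell together with their ligand Bmp4 (1670 and 563, −1.53). T, the brachyury factor, had 101 and 4 counts, and Eomes 358 and 64. Nodal fell from 6256 to 2349 (−1.39), whereas its feedback inhibitors rose, Lefty1 from 1188 to 4674 (1.98) and Lefty2 from 1128 to 4346 (1.95). Dnmt1-/- had 4361 and 7339 counts of these inhibitors and dCas9-OGA 1090 and 1913. The WT replicates stood at 172 ± 2.05 cpm of Lefty1 (SD, n = 3), near the 188 cpm of dCas9-OGA-D242A and above the 47.3 cpm of the WT library, and at 80.3 ± 5.4 cpm of Id1, near the 71.2 cpm of dCas9-OGA-D242A. For Lefty1 the WT library was thus near dCas9-OGA and away from the WT replicates, and for Id1 it was the highest.

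Many markers of primitive endoderm and trophoblast were lower than in the WT library, and few of neural cells and fibroblasts, beside 8.01% of all genes lower and 12.9% higher. Of the primitive endoderm markers 9 of 15 compared genes were lower and none higher (median −1.31), 8 with the trend removed, and their sum fell from 2387 to 1465 cpm, with 2551 in dCas9-OGA, 1401 in Dnmt1-/- and 3067 to 3455 in the WT replicates. The basement membrane collagens Col4a1 (8003 and 2296 counts, −1.78) and Col4a2 (3865 and 1173, −1.69) and Sparc (23352 and 8825, −1.39) carried most of the WT sum, and the factors Sox7 (147 and 4 counts), Sox17 (139 and 26) and Gata6 (222 and 52) were lower too. The laminins Lamc1 (0.00) and Lamb1 (0.45) did not follow. Trophoblast markers had 6 of 9 lower (median −1.56), and fell in sum from 637 to 273 cpm: the keratins Krt8 (6760 and 1333 counts, −2.32) and Krt18 (4727 and 1582, −1.56), Hand1 (589 and 162) and Cdx2, whose 159 and 3 counts allow a log2 ratio without a pseudocount between −8.01 and −4.14. The WT replicates held 226 to 239 cpm of this list, and against their mean its median was 0.55, so its direction rests on the WT library. Neural markers had none of 5 past 2-fold (median −0.20), and the 3 of them measured in the WT replicates had a median of 0.44 against these. Fibroblast markers had 2 of 13 higher and 1 lower (median 0.18, 1060 and 1202 cpm in sum), 3 and 1 with the trend removed, among them Mmp2, a gelatinase (622 and 2053 counts, 1.72), and Vim (9041 and 3692, −1.27). The WT replicates held 4209 to 5630 cpm of this list, and against their mean its median was −1.70, so its direction turned with the WT library used. Targets of SRF and YAP, which report tension and adhesion, had 6 of 15 lower and none higher (5 with the trend removed), led by the matricellular genes Ccn1 (2563 and 748 counts, −1.74) and Ccn2 (2010 and 802, −1.30) and by Amotl2 (6174 and 2078, −1.55). Of the Hox genes 3 of 39 and of the retinoic acid response genes 6 of 11 reached the minimum, and 2 of each were lower, or 3 of the latter with the trend removed, with Meis2 going from 231 to 16 counts. The part of a changed share of differentiating cells in these lists was not tested.

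Genes of cholesterol synthesis and uptake were higher as a group. Of 18 members 11 were 2-fold higher and none lower, beside 12.9% and 8.01% of all genes, with a median log2 ratio of 1.15, and with the trend removed 10 were higher (median 1.20). The list rose in sum from 1067 to 2178 cpm, and it stood at 1893 in dCas9-OGA and 1809 in Dnmt1-/-. Over the 17 members measured in the WT replicates it came to 768 to 785 cpm there and 2074 in dCas9-OGA-D242A, so dCas9-OGA-D242A was the highest of all. Hmgcs1, an early enzyme of the pathway, rose from 2072 to 6071 counts (1.56). The later enzymes Msmo1 (480 and 3146 counts, 2.70) and Cyp51 (547 and 1861, 1.76) remove methyl groups from lanosterol. Insig1, the sterol sensor's retention factor (379 and 1377 counts, 1.84), followed. Srebf2, the transcription factor of this pathway, had 6553 and 11071 counts (0.77), and Mvk a log2 ratio of −0.14. Against the WT replicate mean the median was 1.34. The group was also higher in both other joint libraries against the same WT library, with medians of 0.89 and 1.06.

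The promoters of Hmgcs1, an early enzyme with both motifs searched, and Msmo1, a late enzyme with the largest log2 ratio among the genes with an entry, are shown. Windows run from 250 bases before to 50 after the start in RefSeq on GRCm38.p6, at chr13:119690101-119690400 on the plus strand and chr8:64733529-64733828 on the minus strand. Capitals mark the CCAAT box (CCAAT, or ATTGG on the other strand) and the sterol element core (TCACNCCAC, both strands searched).
Hmgcs1: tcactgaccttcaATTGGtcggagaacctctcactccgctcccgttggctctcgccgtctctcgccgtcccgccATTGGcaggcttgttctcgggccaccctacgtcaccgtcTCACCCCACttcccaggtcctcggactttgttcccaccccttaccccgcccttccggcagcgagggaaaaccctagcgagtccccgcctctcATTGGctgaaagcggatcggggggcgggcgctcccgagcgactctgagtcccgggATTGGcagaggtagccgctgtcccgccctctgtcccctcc
Msmo1: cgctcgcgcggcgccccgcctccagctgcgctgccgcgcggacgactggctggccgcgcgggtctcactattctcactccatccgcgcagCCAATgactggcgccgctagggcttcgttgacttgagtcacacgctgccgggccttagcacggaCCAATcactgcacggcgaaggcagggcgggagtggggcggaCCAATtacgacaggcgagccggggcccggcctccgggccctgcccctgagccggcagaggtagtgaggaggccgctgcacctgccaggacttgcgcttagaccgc
The CCAAT box letters occur in 37.4% of 32851 mouse promoter windows of this length and in 12 of the 14 windows (85.7%) of the 12 cholesterol genes that have an entry, both windows without a match being further starts of a gene with a match in another window. All 7 of the 2-fold higher genes among these had a match in a window, but so had Mvk, with 5 matches and a log2 ratio of −0.14. The sterol element core occurs in 1.24% of all windows and in that of Hmgcs1 alone among the 12 genes. Neither motif overlapped the other, and a match describes letters, not binding.

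Genes downstream of ATF4, the factor of the integrated stress response, had 8 of 21 compared members higher and none lower, with a median of 0.63, and 8 and 1 with the trend removed, beside 12.9% and 8.01% of all genes. Psat1, of serine synthesis, rose from 4221 to 16250 counts (1.96), and Phgdh, the enzyme before it, from 1317 to 2663 (1.02). Mthfd2 (1942 and 4707 counts, 1.29) and Aldh18a1 (1859 and 4392, 1.25) serve folate and proline metabolism, and the stress genes Nupr1 (48 and 224, 1.98) and Ddit3 (98 and 302, 1.52) were scarcer. Atf4 itself had 5310 and 5438 counts, Asns a log2 ratio of 0.39, and Shmt2 one of −0.57. The median was 0.53 in dCas9-OGA and −0.07 in Dnmt1-/- against the same WT library. Against the WT replicate mean it was −0.31, of opposite sign, although Psat1 was at 655 cpm in dCas9-OGA-D242A and 252 ± 3.97 cpm (SD, n = 3) in the replicates.

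Glycolysis and hypoxia genes had 5 of 25 lower and none higher (median −0.58, or 0.15 against the WT replicates), and 3 with the trend removed, beside 8.01% and 12.9% of all genes. The glucose transporters Slc2a1 (44565 and 16898 counts, −1.38) and Slc2a3 (72262 and 29197, −1.29) and Pfkfb3, which sets the pace of glycolysis (1765 and 532, −1.69), led them, and Gapdh (564 and 256 counts) is uncertain because of its many pseudogenes. Ldha (−0.72), Aldoa (−0.64) and Pkm (−0.34) stayed within 2-fold. Of 77 nuclear genes of the respiratory chain 3 were higher and none lower (median −0.16), Uqcrc2 (1192 and 3085 counts), Ndufs4 (823 and 1720) and Atp5s (31 and 125), and 2 with the trend removed. The 13 mRNAs of the mitochondrial genome are listed at 0 in every library and allow no comparison. Among p53 targets and cell-cycle inhibitors 3 of 19 were lower and none higher (median −0.50), or 2 and 1 with the trend removed, Pmaip1 (744 and 165 counts, −2.08), Perp (4028 and 1434, −1.47) and Cdkn1c (1094 and 468, −1.19), whereas Cdkn1a (−0.03) and Mdm2 (0.24) hardly differed. Ribosomal protein genes had 9 of 83 higher and 2 lower (median 0.07), 8 and 2 with the trend removed, led by Rpl7 (1447 and 4537 counts) and Rps4x (3742 and 9917), and share reads with pseudogenes. Against the WT replicate mean their median over the 76 members measured there was −2.01, of opposite sign. Replication-dependent histones had 4 of 13 higher (5 with the trend removed), all of them H1 genes (Hist1h1b, Hist1h1d and Hist1h1e) apart from Hist3h2ba, and polyA selection leaves few of their reads. Immediate early and heat shock genes had 1 of 14 higher and 2 lower, Myc (3310 and 1007 counts, −1.69) and Hspb1 (9611 and 2857, −1.73) among them.

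Interferon-stimulated genes had 5 of 13 compared members higher and none lower (median 0.45), and 4 with the trend removed, beside 12.9% of all genes. Over the 12 members measured in the WT replicates the median against their mean was −0.38, of opposite sign. The antiviral membrane proteins Ifitm1 (1804 and 6400 counts, 1.84) and Ifitm3 (1579 and 5251, 1.74) rose most among abundant members, with Bst2, which tethers virions (1176 and 2964, 1.34). The sensor Ddx58 had 820 and 863 counts (0.09). Ifitm1 reached 258 cpm in dCas9-OGA-D242A and 264 in Dnmt1-/-, against 71.9 in WT, 106 in dCas9-OGA and 81.6 ± 2.34 in the WT replicates (SD, n = 3). Ifit2 was rare (19 and 110 counts).

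Genes of the silencing machinery that holds IAP elements down were not higher as a group. Of 25 genes of the TRIM28 complex and of H3K9 methylation 4 were higher and 2 lower (median −0.10), near the shares of all genes (12.9% and 8.01%), and with the trend removed 2 and 1. Trim28, the corepressor itself, had 127314 counts in WT, 58177 in dCas9-OGA-D242A, 56831 in dCas9-OGA and 71534 in Dnmt1-/- (−1.11). The WT replicates held 2386 ± 89.9 cpm of Trim28 (SD, n = 3), near the 2343 cpm of dCas9-OGA-D242A and under the 5073 cpm of WT, so the WT library again stood apart. Zfp57, which guides TRIM28 to imprints, fell from 8699 to 2782 counts (−1.62) and was lowest in dCas9-OGA-D242A among the joint libraries, with 112 cpm against 278 ± 5.18 in the replicates. Atrx (690 and 2857 counts, 2.05), Zmym2 (755 and 2887, 1.93), Smarca5 (1601 and 4287, 1.43) and Sf3b1 (4473 and 11914, 1.43) were higher, of which Atrx and Zmym2 stayed above 1 with the trend removed (1.07 and 1.08). Setdb1 (−0.71), Hdac1 (−0.19), Chd4 (−0.10) and Kdm1a (0.17) were within 2-fold.

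DNA methylation genes had 1 of 14 higher and 3 lower, beside 12.9% and 8.01% of all genes, or 1 and 2 with the trend removed. Their median was −0.29, or 0.11 against the WT replicates. Tet1, which oxidises methylcytosine (4436 and 18635 counts, 2.08), was higher. Dnmt3l, the cofactor of de novo methylation (30769 and 9924, −1.62), Mbd1 (610 and 222) and Mbd2 (632 and 269) were lower. Dnmt1 had 11408 and 9339 counts (−0.27) and only 1176 in Dnmt1-/-, as that label requires, and Uhrf1, its partner at the replication fork, had a log2 ratio of −0.84. None of 12 genes of O-GlcNAc cycling and the hexosamine pathway passed 2-fold (median 0.57), and Gnpnat1 (2225 and 1450 counts, −0.60) was 2-fold lower with the trend removed (−1.25, list median 0.21). Against the WT replicate mean the median was −0.16, of opposite sign. Ogt (1753 and 2705 counts) and Mgea5, the gene of OGA (2720 and 4202), both had log2 ratios of 0.64, or 0.14 and 0.39 with the trend removed. Polycomb subunits had 3 of 22 on each side (2 higher and 3 lower with the trend removed), Ezh1, Phf19 and Mtf2 higher and Ring1, Kdm2b and Cbx8 lower.

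Imprinted genes had 8 of 27 compared members higher and 5 lower (median 0.49), and 4 and 5 with the trend removed, beside 12.9% and 8.01% of all genes. Peg3 (470 and 2545 counts, 2.42), Zdbf2 (632 and 2574, 2.02), Rian (461 and 1819, 1.97) and Impact (1054 and 3267, 1.64) were higher, and Igf2, the fetal growth factor (4957 and 1030, −2.24), and Grb10 (2863 and 979, −1.52) lower. H19, the neighbour of Igf2, had 4495 and 4713 counts (0.08). Kcnq1ot1 had 13 and 277 counts but is antisense to Kcnq1, whose reads may be among its own, since the use of strand is not settled. Germline genes, many of them kept silent by methylated promoters, had 2 of 20 higher and 6 lower (median −0.65), and 1 and 8 with the trend removed, beside 12.9% and 8.01% of all genes. Usp26 rose from 41 to 277 counts (2.45) and was 1292 in Dnmt1-/-, and Dazl fell from 1014 to 198 (−2.27), with 364 in dCas9-OGA and 2194 in Dnmt1-/-. Stra8 (332 and 54 counts, −2.36) and Tex19.1 (6042 and 2356, −1.34) were lower, and of the Rhox cluster 5 of 34 genes were compared, with Rhox5 higher (996 and 2517, 1.34) and Rhox13 lower (216 and 66).

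Genes on the Y chromosome had the highest median of all lists, a rank that is a description only. Ddx3y, an RNA helicase, had 55 counts in WT, 1333 in dCas9-OGA-D242A, 10 in dCas9-OGA and 1057 in Dnmt1-/- (log2 ratio 4.33). As cpm, Ddx3y stood at 53.7 in dCas9-OGA-D242A and 56.5 in Dnmt1-/-. Uty, a demethylase homolog, had 20, 526, 3 and 425 counts in the same order (4.06), and Eif2s3y, a translation initiation factor, 110, 1266, 68 and 1117 (3.40). WT and dCas9-OGA were low and dCas9-OGA-D242A and Dnmt1-/- high in all 3. Ddx3y and Uty lay under the minimum of counts in WT and reached it alone in dCas9-OGA-D242A, so the filter favoured a high median. Eif2s3y reached the minimum in WT as well. The WT replicates summed to 189 to 217 cpm of the list against 7.41 in the WT library and 127.6 in dCas9-OGA-D242A, and against their mean the median was −0.83, so the direction turned with the WT library used. At the loci of the cassette and of the transactivator 2 of 6 compared genes were higher, Mospd1 (40 and 132 counts) and Thumpd3 (591 and 1237), and none with the trend removed. Hprt, beside the cassette, had 501 counts in WT, 660 in dCas9-OGA-D242A, 631 in dCas9-OGA and 4166 in Dnmt1-/-.

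Chromosomes 8 and 11 had medians above that of all protein-coding genes, also in each of 4 parts along their length. Over 11792 protein-coding genes the median was 0.03, and over the 646 genes of chromosome 8 it was 0.35, with 129 genes 2-fold higher and 23 lower and 70.1% above 0. The 1025 genes of chromosome 11 had a median of 0.24, with 157 higher and 63 lower. With GC content and length removed these medians were 0.36 and 0.28, while that of chromosome 13 went from 0.23 to 0.08. In 4 equal parts by gene number, chromosome 8 had medians of 0.47, 0.39, 0.18 and 0.34 and chromosome 11 of 0.40, 0.18, 0.23 and 0.10, which with the trend removed lay between 0.26 and 0.42. Against the WT replicate mean the medians were 0.44 and 0.53. For dCas9-OGA against the same WT library they were −0.20 and −0.32, and for Dnmt1-/- −0.07 and 0.18. Of the other chromosomes from 1 to 19 and X, none had a median beyond 0.2 other than chromosome 13. The copy number of these chromosomes was not measured here, and values of genes on them, such as Msmo1, Bst2 and Mmp2 on chromosome 8, carry that shift.

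**Figure D5:**
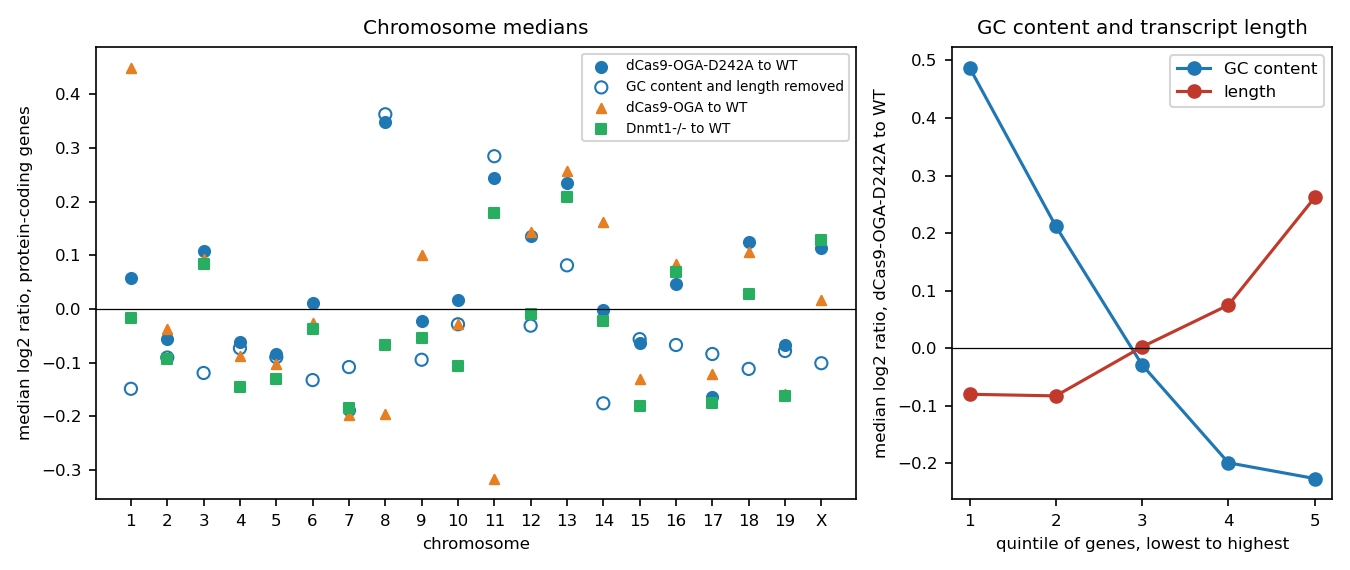
Left, median log2 ratio (y axis) of protein-coding genes on each chromosome (x axis) for dCas9-OGA-D242A against WT, before and after removal of GC content and length, and for dCas9-OGA and Dnmt1-/- against the same WT library. Right, median log2 ratio of dCas9-OGA-D242A to WT (y axis) over quintiles of genes by GC content and by transcript length (x axis): it falls from 0.49 to −0.23 with rising GC content.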

How the data were processed

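RNA was sequenced from polyA-selected libraries. The labels name a TruSeq v2 kit, which does not mark strand, and the study's methods a stranded TruSeq kit, so the use of strand in the counts is not settled. The authors mapped reads to mm10 and deposited whole counts per Ensembl gene and per RepeatMasker subfamily for 4 libraries, without normalization (bcl2fastq 2.17, TopHat2 2.0.11, Bowtie2 2.2.2 and featureCounts 1.5.0 in the submitters' processing notes). The 3 WT replicates were deposited as a normalized signal with sums from 959084 to 964265. Header and columns of those files disagree, and values were read by column position. From the low values 100% came out whole within 0.01, as 26846275 to 37112247 reads, and the signal was rescaled to cpm over its own genes. Genes without a value there were left out of comparisons with the replicates. The dCas9-OGA-D242A sample file and joint column were equal in 49671 of 49671 genes. The WT column is named for its group and is not tied to a sample.

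Counts were scaled on each library's total over genes. Features with at least 100 counts summed over WT and dCas9-OGA-D242A were compared on log2(cpm + 0.5) and called at 2-fold, with no test. The totals were 25097983 and 24828078. Intervals (95%, exact Clopper-Pearson, on counts without a pseudocount) cover counting error only. A 0 was replaced by a floor of 3 counts only for the lower bound on a fold, and log2 ratios and calls kept the 0. The members and the 31 gene lists were chosen with earlier results of these data known. Named were the 15 genes each that rose and fell most, up to 8 members per list by size or as defining members, the 10 repeats with the largest rise and fall, all IAP, L1Md, B1 and B2 subfamilies and genes the study names. Some genes this rule names are not reported here. GENCODE vM21 (GRCm38) matched 49326 of 49671 identifiers, and promoters came from RefSeq. Calls were tested on simulated data with counting error only and genes changed 4-fold, which cannot show how libraries of the same kind vary. Alternatives changed the scaling (TMM, edgeR 4.0.16; size factors, DESeq2 1.42.0), pseudocount, minimum, fold, WT library and GC trend. Software was Python 3.11.15 with SciPy 1.17.1, NumPy 2.4.6, matplotlib 3.10.9 and pandas 2.3.3, and R 4.3.3. ChIP-seq and the Dnmt1-/- replicates were not used here.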

Additional observations from a re-analysis of the deposited data

Results flagged for a closer look

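The rRNA row, which the comparisons leave out, was higher in dCas9-OGA-D242A than in the WT control. It held 740992 counts in dCas9-OGA-D242A and 478521 in WT, which is 29845 and 19066 cpm on the scale of gene counts, a log2 ratio of 0.65, and 48.2% and 40.6% of the repeat table. On that scale it stood at 30731 cpm in Dnmt1-/- and 22126 cpm in dCas9-OGA, so WT was the lowest of the 4 libraries.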

How the results depend on the processing

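No paired analysis was possible because each arm had 1 library. The number of genes past 2-fold (2709) went to 1495 (961 higher, 534 lower) with a pseudocount of 5 cpm, 1317 (845 and 472) with at least 1000 counts and 440 (279 and 161) at 4-fold, each of which counts fewer genes by construction. Repeats past 2-fold were 16 (9 and 7) with a pseudocount of 5 cpm, 10 (5 and 5) with at least 1000 counts and 3 (0 and 3) at 4-fold, and 39 were higher with a minimum of 20 and also with none. Other scalings moved the split of repeats from 24 higher and 17 lower to 9 and 29 (centred), 10 and 29 (TMM on repeats), 7 and 34 (DNA transposon counts) and 13 higher (total repeat counts), and IAPEz-int from 0.18 to −0.027 (total repeat counts), −0.26 (DNA transposons) and −0.19 (TMM on repeats). Genes past 2-fold from the WT replicate mean (4100) went to 1857 (1179 higher, 678 lower) with at least 1000 counts, to 1351 higher with a pseudocount of 5 cpm, and to between 4070 and 4139 (2085 to 2119 higher, 1985 to 2022 lower) with each WT replicate left out. Against that mean the medians of 12 of 30 lists had the opposite sign, among them trophoblast markers (0.55) and Y-linked genes (−0.83), which were past 2-fold against the WT library, and with the GC trend removed those of 2 lists, and the cause was not tested. For the main results, 80 of the values under alternatives kept their size and 34 did not. List medians kept it in 153 cases, moved in 55 and reversed in 2, repeat classes kept it in 10 and moved in 30, and medians of chromosomes 8, 11 and 13 kept it in 12 and moved in 3. A list median counted as kept within the counting-error interval of the member nearest to it. It counted as reversed only where its sign turned from past 2-fold, and other changes of sign stand under kept or moved. Lists with a median at least 0.5 from 0 numbered 12 to 19 (17 as reported). The comparison with all 3 other joint libraries, the replicate values of single genes, the scalings of IAP subfamilies and the parts of chromosomes 8 and 11 were added after seeing the data.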

Other observations

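With list members included, 123 genes were at least 2-fold above and 70 at least 2-fold below all 3 other joint libraries in dCas9-OGA-D242A. The genes named here lie outside the lists and were chosen after their values were seen. Serpinf1, a secreted anti-angiogenic serpin, had 300 counts in dCas9-OGA-D242A against 37 in WT, 13 in dCas9-OGA and 29 in Dnmt1-/-, but its 12.1 cpm lay below the 26.7 ± 3.9 cpm of the WT replicates (SD, n = 3). Got1l1 (669 against 54, 209 and 167 in the same order), Mxra7 (1266 against 302, 415 and 307) and the Wnt antagonist Nkd1 (274 against 72, 76 and 47) were highest in dCas9-OGA-D242A too, also beside the WT replicates. Got1l1 and Nkd1 lie on chromosome 8 and Serpinf1, Mxra7 and Slit3 on chromosome 11, whose genes were higher as a whole. The axon guidance ligand Slit3 had 630 counts against 206, 59 and 144, but its 25.4 cpm lay below the 58.7 ± 8.8 cpm of the replicates (SD, n = 3). Myb, a transcription factor of haematopoietic progenitors, had 424 counts against 75, 58 and 109.

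Of the genes below all others, Wnt6 had 45 counts in dCas9-OGA-D242A against 461 in WT, 678 in dCas9-OGA and 104 in Dnmt1-/-. The galectin Lgals3 had 403 against 2767, 1718 and 1454, the guidance cue Ntn1 385 against 2047, 1086 and 911, and the sensory neuron factor Pou4f2 43 against 252, 704 and 132. H2-M5, a nonclassical MHC gene on chromosome 17 close to Zfp57, had 148 against 1234, 505 and 601. These values have 1 library each and no replicate check.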
